A study of Homo sapiens with 6 samples.

Results

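Telomerase and shelterin genes were followed as a group of 10 in bulk RNA-seq of 1CT and 1CT-A cells. They are TERT, DKC1, NOP10, WRAP53, TERF1, TERF2, TERF2IP, TINF2, POT1 and RTEL1, chosen by name from the 24462 gene symbols of the count files, and each of the 10 was found as a single entry. 1CT is an immortalized human colon epithelial cell line, labelled wild type, and 1CT-A is its derivative with wild type APC depleted, labelled as an APC knockdown. Both were untreated and grown in the same medium, with 20 ng/ml epidermal growth factor and 2% FBS. The study describes 1CT as a line with hTERT manipulation, and HCEC lines of this kind are known to be immortalized with introduced CDK4 and TERT. There were 3 libraries of each line, and no source says that they came from separate cultures, so p-values measure the spread between these libraries, which may be technical. Whether 1CT-A is a clone or a pool is not given in the sources used here.

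Telomerase lengthens chromosome ends by copying a template in its RNA component, TERC, with the reverse transcriptase TERT. The RNA is held by the box H/ACA proteins dyskerin (DKC1), NOP10, NHP2 and GAR1, and WRAP53 brings the particle to Cajal bodies. Shelterin is the protein complex that covers the finished telomere. TERF1 and TERF2 bind its double-stranded repeats, POT1 binds the single-stranded overhang with its partner ACD, TINF2 bridges these proteins and TERF2IP binds TERF2. RTEL1 is a helicase that unwinds telomeric loops. Most adult epithelial cells carry little or no TERT, while the other genes are expressed widely.

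In total 7788679 to 8452258 reads were counted in the 1CT libraries and 11158108 to 12602988 in the 1CT-A libraries, so the limit of 3 counts, as CPM (counts per 1000000 counted reads of the library), was between 0.355 and 0.385 CPM in 1CT and between 0.238 and 0.269 CPM in 1CT-A. APC itself was lower in 1CT-A (46.6 ± 2.75 CPM against 31.9 ± 2.21 CPM, SD, n = 3, edgeR adjusted p = 0.000176). Replicates differed by more than counting noise, and the chi-square over its degrees of freedom was at least 7.54 between 1CT replicate 3 and the other 1CT libraries, against 3.11 to 4.56 between all other pairs, so values that turn on 1CT replicate 3 are also given without it. The label of a colon epithelial cell was not borne out by most of the 12 epithelial markers read. Of 12 epithelial markers, 8 (EPCAM, KRT20, VIL1, CDX2, CDX1, MUC2, LGR5 and CDH17) had at most 3 counts in every library. KRT18 had 82 to 109 counts in 1CT and 36 to 80 in 1CT-A. KRT19 had 20 to 34 counts in 1CT and, like TERT below, 0 in every 1CT-A library. KRT8 had 4 to 14 counts in 1CT and 0 to 8 in 1CT-A, and CDH1 had 3 to 4 and 0 to 3. The list summed to between 13.5 and 17.4 CPM in 1CT, and between 3.23 and 7.29 CPM in 1CT-A. The 10 fibroblast or mesenchymal markers summed to between 4717 and 5761 CPM in 1CT, and to between 4391 and 4705 CPM in 1CT-A, with none at or under 3 counts in every library. All 5 endothelial markers and 4 of 5 blood markers were at or under 3 counts, the exception being CD68.

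Of the 10 genes, 9 had enough counts for the test and RTEL1 did not. In 1CT-A, 4 of the 9 were higher (DKC1, POT1, WRAP53 and TERF2) and 1 was lower (TERT), by edgeR's quasi-likelihood test at an adjusted p under 0.05. Over all 12514 symbols tested, 25.0% were higher and 26.0% were lower, against 44.4% and 11.1% of the 9. By the thresholds of at least 2-fold and an unadjusted p under 0.01, TERT was the 1 gene of the 9 that passed, where 13.4% of all symbols did. The CPM values of the cell lines did not overlap for 6 of the 9 genes (66.7%, with 59.7% among all symbols tested), and for such a gene the exact permutation test gives p = 0.1, the smallest possible with 3 libraries against 3. With 9 genes these shares are descriptions, and the results that follow concern single genes. The median log2 fold change of the 9 was -0.03, also with TERT at its bound, and that of all symbols was -0.0067.

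**Figure D1:**
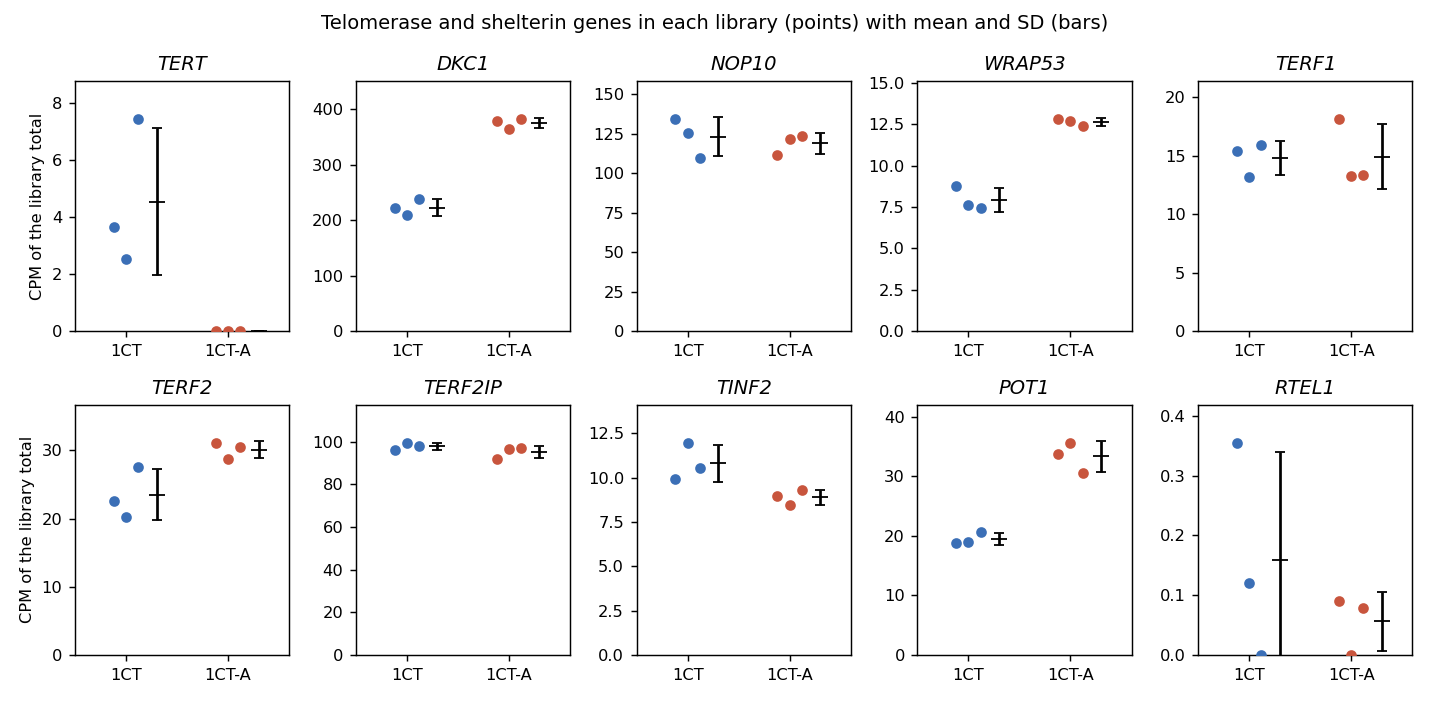
CPM of the library total (vertical axes, from 0, a scale for each gene) of the 10 genes in the 3 libraries of 1CT (blue points) and of 1CT-A (red points), with the mean and SD as black bars. TERT is at 0 in every 1CT-A library, DKC1, WRAP53, TERF2 and POT1 lie higher in every 1CT-A library than in any 1CT library, and NOP10, TERF1, TERF2IP and RTEL1 overlap.

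The promoters of DKC1, NOP10 and POT1 are shown because DKC1 and NOP10 encode partners in the same particle and gave different results, and because POT1 was the shelterin gene with the largest rise. The sequences are those of RefSeq on GRCh38.p14, from 250 bases before the gene's start to 50 bases into the gene, written 5′ to 3′ on the strand of the gene. Capitals mark the first base of the gene, the E-box CACGTG and the CCAAT box (CCAAT, or ATTGG on the other strand). DKC1 lies at chrX:154762614-154762913 on the plus strand, NOP10 at chr15:34343087-34343386 on the minus strand and POT1 at chr7:124929776-124930075 on the minus strand.
DKC1: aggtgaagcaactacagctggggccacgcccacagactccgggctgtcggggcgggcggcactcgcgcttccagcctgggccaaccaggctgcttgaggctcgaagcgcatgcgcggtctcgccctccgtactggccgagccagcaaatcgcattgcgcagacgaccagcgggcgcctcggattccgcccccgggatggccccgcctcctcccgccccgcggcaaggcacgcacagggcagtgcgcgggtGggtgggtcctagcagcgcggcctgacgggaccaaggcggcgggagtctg
NOP10: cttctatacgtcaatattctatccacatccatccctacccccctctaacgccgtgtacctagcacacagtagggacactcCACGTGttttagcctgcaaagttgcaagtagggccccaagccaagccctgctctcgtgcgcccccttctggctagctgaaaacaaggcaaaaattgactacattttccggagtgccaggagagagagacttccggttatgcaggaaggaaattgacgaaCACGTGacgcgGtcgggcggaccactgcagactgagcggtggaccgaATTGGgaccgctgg
POT1: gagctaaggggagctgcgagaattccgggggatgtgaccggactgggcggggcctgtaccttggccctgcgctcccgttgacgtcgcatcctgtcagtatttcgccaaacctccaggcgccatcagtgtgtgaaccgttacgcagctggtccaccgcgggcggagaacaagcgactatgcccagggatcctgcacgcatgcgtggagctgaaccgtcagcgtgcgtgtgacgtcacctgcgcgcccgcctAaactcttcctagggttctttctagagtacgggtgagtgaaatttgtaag

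RefSeq promoters were matched for 8 of the 10 genes, all but TERF1 and TERF2. WRAP53 had 3 start windows, and TINF2 and RTEL1 had 2 each. A gene was counted if any of its windows held the motif, while the shares of all promoters are of single windows, so the counts are not strictly alike. The E-box CACGTG, the palindromic motif that MYC and MAX bind, was found in 2 of the 8, where 7.26% of 35116 promoters of the same length hold it. NOP10 holds it at 170 and at 11 bases before its start and TERT at 163 bases before its start, while the DKC1, POT1 and WRAP53 windows hold none. The TCF/LEF motif ATCAAAG (2.62% of all promoters) and the E2F motifs TTTCCCGC and TTTGGCGC (2.27%) were found in none of the 8, on either strand. CCAAT was found in 3 of the 8 (NOP10, WRAP53 and TINF2, against 34.6% of all promoters) and the telomere repeat TTAGGG in WRAP53 alone (9.05%). No motif searched contains another, and a match is a description of the sequence.

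TERT, the reverse transcriptase of telomerase, was counted in 1CT and in no 1CT-A library. It had 31, 21 and 58 counts in 1CT replicates 1, 2 and 3, which is 3.67, 2.54 and 7.45 CPM (4.55 ± 2.57 CPM, SD, n = 3). In the deeper 1CT-A libraries it had 0 counts in each, under the limit of 3 counts at 0.269, 0.263 and 0.238 CPM in replicates 1, 2 and 3. By the exact Poisson 95% interval, 0 counts allow up to 0.331, 0.324 and 0.293 CPM in these libraries. The cell lines did not overlap, and the spread within 1CT was wide. The exact Poisson 95% interval was 1.57 to 3.88 CPM in 1CT replicate 2 and 5.66 to 9.63 CPM in 1CT replicate 3, so that these libraries differed by more than counting error. With 3 counts taken for each 1CT-A library, the mean of 1CT gave a bound of at least 17.7-fold lower in 1CT-A. This bound is set by the limit of 3 counts and is no confidence limit. The bound was 12.1-fold without 1CT replicate 3, 19.4-fold without replicate 1 and 21.7-fold without replicate 2, and 9.88-fold from 1CT replicate 2 alone. edgeR's adjusted p was 2.28e-05, and the fitted log2 fold change of -8.52 depends on the prior count and is no bound.

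TERT maps to chromosome 5 (1253147 to 1295068, minus strand) in GRCh38. Positions of genes in the text are those of GENCODE release 44, while the counts were made on hg19. With 1 count per symbol, the values do not show whether the TERT reads came from the introduced TERT, from the chromosomal gene or from both. The libraries were made with a 3′ kit, and the 3′ sequence of the introduced TERT is not given in the sources used here. Whether its reads were counted under TERT is therefore not known. Whether 1CT-A carries the same TERT construct as 1CT is not given in the sources used here, so the 0 counts are a statement on the libraries of that line as deposited. The nearest genes were SLC6A18, at 6958 bases, with 0 counts in all 6 libraries, and CLPTM1L, at 22684 bases on the same strand. CLPTM1L had 2152 to 2408 counts in 1CT and 3301 to 3941 counts in the deeper 1CT-A libraries, a mean of 281 CPM against 305 CPM. CDK4, the kinase of the immortalization background, had 39.0, 41.8 and 39.3 CPM in 1CT and 79.4, 78.7 and 86.4 CPM in 1CT-A. Unlike TERT it was higher in every 1CT-A library (log2 fold change 0.99, standard error 0.08, edgeR adjusted p = 6.69e-07). Whether reads of the introduced CDK4 were counted under CDK4 is likewise not known. Across the 6 libraries the symbols most like TERT in log2(CPM + 1) were EZR (Pearson's r = 0.998), SLC16A3 (0.998) and ETFB (0.998), each with a mean lower in 1CT-A, as a description of 6 points in 2 groups. Among the 8224 symbols compared, 1144 had an r over 0.9.

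DKC1 encodes dyskerin, the pseudouridine synthase that also holds the telomerase RNA. It had 221, 209 and 238 CPM in 1CT and 379, 364 and 382 CPM in 1CT-A, so every 1CT-A library was above every 1CT library. The log2 fold change was 0.71 (standard error 0.07, 95% interval 0.56 to 0.87, edgeR adjusted p = 3.91e-06), a fold of 1.64. Leaving out any single library gave values of 0.67 to 0.78. DKC1 maps to chromosome X (154762742 to 154777689, plus strand). The snoRNAs SNORA36A and SNORA56 lie inside it and had at most 2 counts in a library.

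NOP10, a small protein partner of dyskerin, did not pass the test. It had 134, 126 and 110 CPM in 1CT and 111, 122 and 124 CPM in 1CT-A, and the groups overlapped. The log2 fold change was -0.09 with a 95% interval from -0.27 to 0.09 (edgeR adjusted p = 0.385). NOP10 maps to chromosome 15 (34339159 to 34343180, minus strand). The ratio of DKC1 counts to NOP10 counts, into which no scaling of libraries enters, was 1.65, 1.66 and 2.17 in the 1CT libraries and 3.40, 2.99 and 3.09 in the 1CT-A libraries. The ratio did not overlap between the lines (1.82 ± 0.297 against 3.16 ± 0.218, SD, n = 3, exact permutation test p = 0.1, the smallest this design allows). No such ratio was computed for other pairs of genes over the whole table, so the non-overlap is a description.

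**Figure D2:**
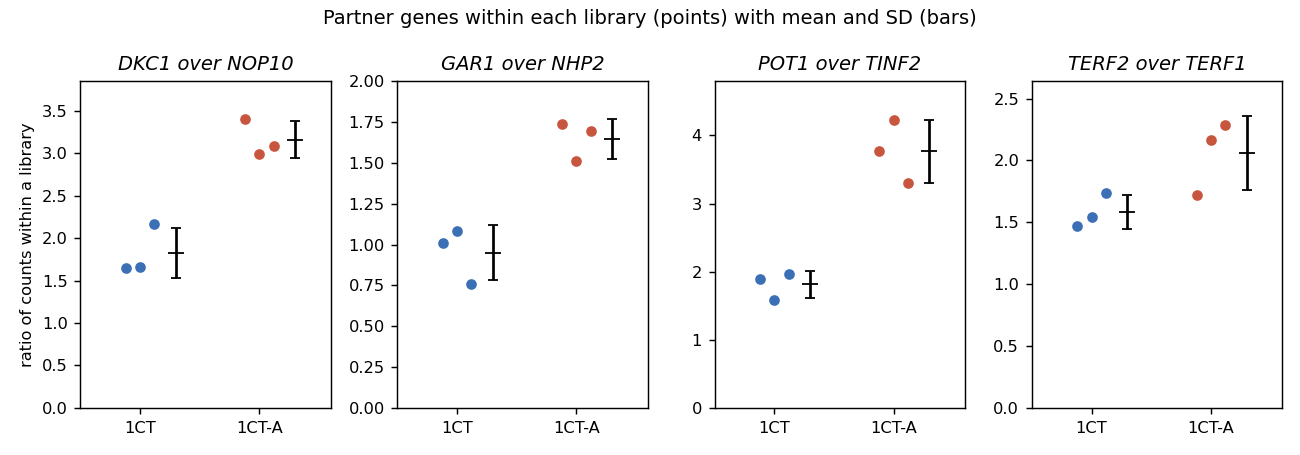
Ratio of the counts of partner genes within a library (vertical axes, from 0) in the 3 libraries of 1CT (blue points) and of 1CT-A (red points), with the mean and SD as black bars. DKC1 over NOP10, GAR1 over NHP2 and POT1 over TINF2 do not overlap between the lines, and TERF2 over TERF1 does.

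The other core proteins of the particle, which are not among the 10 genes, had fitted differences of opposite sign. GAR1 had 97.6, 96.8 and 78.2 CPM in 1CT and 144, 130 and 147 CPM in 1CT-A (log2 fold change 0.59, standard error 0.09, edgeR adjusted p = 0.000151). NHP2 had 96.7, 89.6 and 103 CPM in 1CT and 83.1, 86.2 and 86.6 CPM in 1CT-A (log2 fold change -0.22, standard error 0.08, edgeR adjusted p = 0.037), a call that was lost under library size scaling, under the replicate block, with DESeq2 and without 1CT replicate 3. The ratio of GAR1 to NHP2 counts was 1.01, 1.08 and 0.759 in 1CT and 1.74, 1.51 and 1.70 in 1CT-A. The ratio was higher in every 1CT-A library, which follows from the CPM above, as GAR1 was higher and NHP2 lower in every 1CT-A library.

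WRAP53, which carries telomerase to Cajal bodies, rose in 1CT-A. It had 8.76, 7.61 and 7.45 CPM in 1CT and 12.8, 12.7 and 12.4 CPM in 1CT-A, with no overlap. The log2 fold change was 0.63 (standard error 0.14, 95% interval 0.33 to 0.93, edgeR adjusted p = 0.00206). Leaving out any single library gave 0.60 to 0.71. WRAP53 maps to chromosome 17 (7686071 to 7703502, plus strand).

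TERC, the RNA component, was lower in 1CT-A. It had 34.2, 27.3 and 35.8 CPM in 1CT and 11.5, 16.2 and 14.4 CPM in 1CT-A (log2 fold change -1.25, standard error 0.14, edgeR adjusted p = 1.11e-05). Mature TERC is known to lack a poly(A) tail, and the QuantSeq kit primes on poly(A), so these counts need not follow the level of the mature RNA. Of the chaperones of telomerase assembly, RUVBL1 was higher in 1CT-A (log2 fold change 0.52, standard error 0.08, edgeR adjusted p = 0.000115), and RUVBL2 had a log2 fold change of 0.20 (95% interval 0.02 to 0.38, edgeR adjusted p = 0.0653) and did not pass. The difference between them was not tested.

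Among the shelterin genes, POT1, which binds the single-stranded end of the telomere, rose in 1CT-A. It had 18.8, 19.0 and 20.7 CPM in 1CT and 33.8, 35.6 and 30.6 CPM in 1CT-A, so the lines did not overlap. The log2 fold change was 0.74 (standard error 0.10, 95% interval 0.51 to 0.96, edgeR adjusted p = 6.84e-05), a fold of 1.67. Leaving out any single library gave 0.70 to 0.80. POT1 maps to chromosome 7 (124822386 to 124929983, minus strand), and its antisense gene POT1-AS1 had at most 5 counts in a library. ACD, the partner that recruits POT1 to shelterin and is not among the 10 genes, had 7.69, 8.93 and 8.35 CPM in 1CT and 11.6, 11.3 and 10.1 CPM in 1CT-A. Its libraries did not overlap, but it did not pass the test (log2 fold change 0.36, 95% interval 0.05 to 0.67, edgeR adjusted p = 0.0532).

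TINF2, the bridge between the double-strand binders and ACD with POT1, had 9.94, 11.95 and 10.5 CPM in 1CT and 8.96, 8.43 and 9.28 CPM in 1CT-A. The lines did not overlap, yet the log2 fold change of -0.32 (95% interval -0.63 to -0.01) did not pass (edgeR adjusted p = 0.0791). The ratio of POT1 to TINF2 counts was 1.89, 1.59 and 1.96 in 1CT and 3.77, 4.23 and 3.30 in 1CT-A. Every 1CT-A library had the higher ratio (1.81 ± 0.201 against 3.77 ± 0.465, SD, n = 3, exact permutation test p = 0.1). As POT1 was higher and TINF2 lower in every 1CT-A library, this order and its p-value were fixed by the CPM above and add no separate result. TINF2 maps to chromosome 14 (24238286 to 24242663, minus strand), and its 3′ end lies inside GMPR2 on the opposite strand. GMPR2 had 365 to 417 counts in 1CT and 412 to 442 counts in the deeper 1CT-A libraries. As CPM it was lower in 1CT-A, with a mean of 47.6 CPM in 1CT and 36.4 CPM in 1CT-A. As the use of strand in counting is not stated, reads of the overlap cannot be told apart.

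TERF2, which protects the chromosome end and binds double-stranded repeats, had 22.6, 20.3 and 27.6 CPM in 1CT and 31.1, 28.7 and 30.5 CPM in 1CT-A. The highest 1CT library, replicate 3, lay close to the lowest 1CT-A library, replicate 2. The log2 fold change was 0.32 (standard error 0.12, 95% interval 0.06 to 0.58, edgeR adjusted p = 0.0396). Of the 5 calls it was the 1 that leaving out a library ended. It was lost without 1CT replicate 1 (edgeR adjusted p = 0.109), without 1CT replicate 2 (0.158) and without 1CT-A replicate 1 (0.108), 2 (0.0553) or 3 (0.0973), and it held without 1CT replicate 3 (0.00175). TERF2 maps to chromosome 16 (69355567 to 69408571, minus strand) and overlaps CYB5B on the opposite strand, with neither 3′ end inside the other gene.

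TERF1, the other double-strand binder, and TERF2IP, which joins the complex through TERF2, did not pass the test. TERF1 had 15.4, 13.2 and 15.9 CPM in 1CT and 18.1, 13.3 and 13.3 CPM in 1CT-A. The groups overlapped, with the 1CT-A spread set by replicate 1, and the interval of the log2 fold change of -0.03 ran from -0.37 to 0.30 (edgeR adjusted p = 0.876). TERF2IP had 95.8, 99.4 and 98.0 CPM in 1CT and 92.0, 96.7 and 97.0 CPM in 1CT-A, with an SD of 1.78 and 2.83 CPM. Its log2 fold change was -0.08 with an interval of -0.23 to 0.08 (edgeR adjusted p = 0.396). The ratio of TERF2 to TERF1 counts was 1.58 ± 0.137 in 1CT and 2.06 ± 0.299 in 1CT-A (SD, n = 3) and overlapped between the lines (exact permutation test p = 0.2). TERF1 maps to chromosome 8 (73008856 to 73048123, plus strand), and TERF2IP to chromosome 16 (75647773 to 75761872, plus strand).

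RTEL1, the telomere loop helicase, was at or under the limit of detection. It had 3, 1 and 0 counts in 1CT and 1, 0 and 1 in 1CT-A, so no fold is given, and a difference was not detectable at this depth. It maps to chromosome 20 (63657810 to 63696253, plus strand). TNFRSF6B lies on the same strand with 399 bases between the genes, and the annotation also holds a readthrough gene of both, RTEL1-TNFRSF6B, which had at most 2 counts in a library. TNFRSF6B, a decoy receptor of the tumor necrosis factor family, had 179, 192 and 187 counts in 1CT and 50, 39 and 44 counts in 1CT-A. Whether reads from RTEL1 transcripts were counted on TNFRSF6B was not tested.

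**Figure D3:**
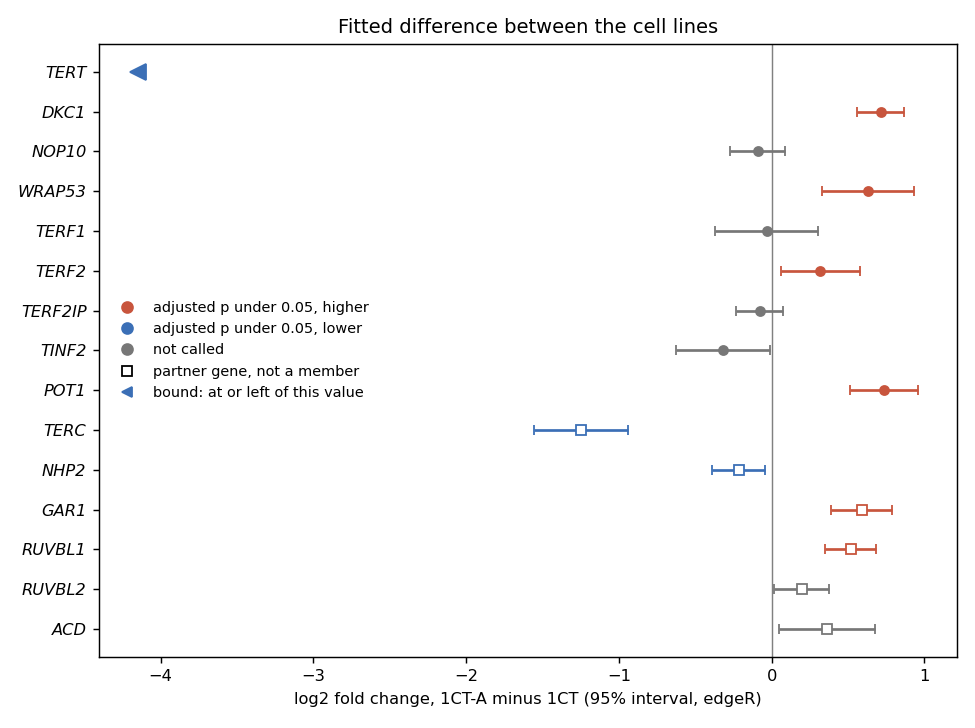
Fitted difference of 1CT-A from 1CT on the log2 scale (horizontal axis, edgeR log2 fold change) with its 95% interval as bars, for the 9 tested genes (filled circles) and 6 partner genes (open squares), in red for higher and blue for lower at an adjusted p under 0.05 and grey otherwise. TERT is drawn as a triangle at its bound of -4.15, DKC1, WRAP53, TERF2 and POT1 lie above 0, and TERC at -1.25 lies below.

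The wider telomere machinery was read from lists of other genes, chosen with earlier results of these data known. Each is to be set against the 25.0% higher and 26.0% lower of all symbols tested and their median log2 fold change of -0.0067. All 16 proliferation markers, given below, were also higher in 1CT-A, and the part of proliferation in these lists was not tested. Of 17 telomerase assembly genes, 11 were higher (64.7%) and 3 lower (17.6%) in 1CT-A, with a median of 0.47. With DESeq2 9 were higher and 2 lower, as NHP2, NAF1 and SMN1 were lost. With library size only 13 were higher and 2 lower, and NHP2 was lost. Beside TERC, the largest differences were those of TEP1, a protein of the vault and telomerase particles (-1.06, standard error 0.18), of TOE1, which trims the ends of small nuclear RNAs (0.84, standard error 0.14), and of SMN1 (1.25, standard error 0.37). SMN1 is uncertain, since reads can be shared with its near-identical copy SMN2 and its 1CT counts were 1113, 735 and 181. A list of 8 genes joined the other shelterin and CST genes with the DNA polymerase alpha-primase that fills in the telomere, and 4 of the 8 were higher and 1 was lower. All 4 higher genes were subunits of polymerase alpha-primase, and none of the 4 shelterin and CST genes was higher. This split depended on the scaling. With library size only 5 of the 8 were higher, and under upper-quartile scaling 3 were higher and 2 lower. The primase subunits PRIM1 (1.34, standard error 0.30) and PRIM2 (0.56, standard error 0.22) and the polymerase subunits POLA1 (1.09, standard error 0.13) and POLA2 (0.42, standard error 0.10) rose, and the CST subunit TEN1 fell by 0.53 on the log2 scale (standard error 0.12, edgeR adjusted p = 0.00253). The other CST subunits, CTC1 (-0.41, edgeR adjusted p = 0.0686) and OBFC1 (-0.13, edgeR adjusted p = 0.503), and ACD did not pass. PRIM2 was not called under upper-quartile scaling, with DESeq2 or without 1CT replicate 3.

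Of 22 tested genes of telomere replication and end processing, 13 were higher (59.1%) and 3 lower (13.6%), against 25.0% and 26.0% of all symbols, with a median of 0.34, and ZBTB10 had too few counts. The higher genes were 11 under upper-quartile scaling, the replicate block or DESeq2, each without TNKS2 and DAXX. The nucleases EXO1 (1.21, standard error 0.18), DNA2 (0.95, standard error 0.27) and FEN1 (0.92, standard error 0.07) and the helicase BLM (1.15, standard error 0.17) had the largest differences. A list of 15 genes held double-strand break factors found at telomeres and the RNA decay factors UPF1, SMG1 and SMG6. Of the 15, 6 were higher (40.0%) and 2 lower (13.3%), with a median of 0.15. These counts were the same under the scalings, the replicate block, DESeq2 and limma-voom. H2AFX (0.97, standard error 0.09), PARP1 (0.69, standard error 0.08) and PRKDC (0.57, standard error 0.11) rose. RAD50 of the MRE11 complex fell by 0.83 on the log2 scale (standard error 0.09), and the other lower gene was SMG6 (-0.47, standard error 0.13).

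Of 18 genes listed as regulators of TERT transcription, activators and repressors together, 10 were higher (55.6%) and 4 lower (22.2%), against 25.0% and 26.0% of all symbols, with a median of 0.23. Under upper-quartile scaling 7 were higher and 5 lower, as MAX, GABPA and CTNNB1 were lost. MYC, an activator, had 8.28, 8.57 and 4.75 CPM in 1CT and 15.4, 21.4 and 17.6 CPM in 1CT-A (log2 fold change 1.29, standard error 0.19, edgeR adjusted p = 0.000119). ETS2 was higher as well (1.01, standard error 0.10). WT1, described as a repressor of TERT, fell by 2.29 on the log2 scale (standard error 0.35), and KLF4, an activator in stem cells, fell by 1.49 (standard error 0.32). MYC was higher in the line in which no TERT was counted, and a link between the levels of these genes was not tested.

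A further list held genes of proliferating cells, to be set against the 25.0% of all symbols that were higher in 1CT-A. All 16 proliferation markers were higher in 1CT-A (edgeR adjusted p under 0.05, median log2 fold change 0.98, from 0.39 for MKI67 to 1.53 for MCM2), with PCNA (1.22), CCNA2 (1.22) and MCM6 (1.11) after MCM2. The median was above the 0.71 of DKC1 and the 0.74 of POT1. The part of proliferation in the differences of DKC1, POT1, WRAP53 and TERF2, or of the other lists, was not tested. In bulk libraries, more cells of a cycle stage and more RNA per cell cannot be told apart. No gene called in any of these lists changed sign under the other scalings, DESeq2, limma-voom, the replicate block or without 1CT replicate 3, while calls were lost beside those named above. CTNNB1 was lost with the replicate block, HMBOX1 with library size only and with DESeq2, and NAF1, TNKS2, HMBOX1 and GABPA without 1CT replicate 3. No call among the proliferation markers or in the list with the double-strand break factors was lost.

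**Figure D4:**
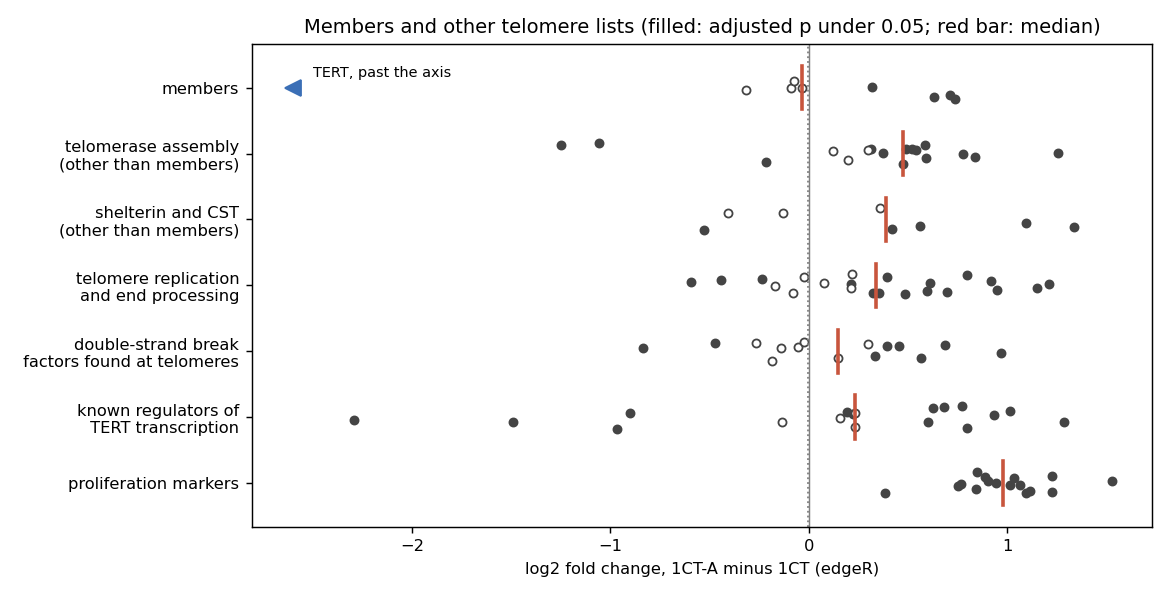
Difference of 1CT-A from 1CT (horizontal axis, edgeR log2 fold change) for the genes of each list (points, filled for an adjusted p under 0.05), with the median of a list as a red bar and the median of all symbols as a dotted line. TERT is drawn as an arrow because its value lies beyond the axis, and all 16 proliferation markers lie above 0 and are filled, while the 9 tested telomerase and shelterin genes lie on both sides.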

How the data were processed

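The dataset is bulk RNA-seq of 3 libraries of 1CT and 3 of 1CT-A cells. Per the labels, libraries were made with a QuantSeq 3′ kit from 500 ng of total RNA. The authors deposited raw counts, whole numbers of reads per gene symbol, without normalization and without pooling. The submitters' processing notes name the hg19 build and the tools Bowtie2 and edgeR. The counting tool, the annotation, the use of strand and any read filter are not given in the sources used here.

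Counts of repeated symbols were added together, which gave 24462 symbols. CPM are counts divided by the total of their library, times 1000000. Symbols were filtered with filterByExpr (min.count 10) and scaled by TMM factors (0.976 to 1.02). The lines were compared in edgeR 4.0.16 (R 4.3.3) by its quasi-likelihood test, with no block. P-values were adjusted by Benjamini-Hochberg across all 12514 tested symbols. A gene was called at an adjusted p under 0.05. A second rule took at least 2-fold and an unadjusted p under 0.01, the thresholds of the study's methods. The study used them with a two-tailed t-test, while here they were applied to edgeR's p, so the calls are not strictly alike. The script was tested on simulated data. Exact permutation tests were two-sided. A count of 3 was the smallest taken as visible. The exact Poisson intervals and this limit cover counting error only, since the files hold no molecular identifiers. The intervals of log2 fold changes are those of the edgeR fit and are not of this kind.

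The genes named are the 10 listed genes, APC, MYC, CDK4, TERC, ACD, NHP2, GAR1, RUVBL1 and RUVBL2, the called genes with the 4 largest absolute log2 fold changes of each other list, neighbours of a listed gene, and the 3 symbols most like TERT across libraries. Any other gene was named after its values were seen. The members and lists were chosen with earlier results of these data known. Deviations of same-numbered libraries were not shared (their correlations averaged -0.0268 over 8224 symbols with a mean of at least 10 CPM), so the numbers were not taken as pairs. Alternatives were DESeq2 size factors, library size only, upper-quartile scaling, limma-voom (limma 3.58.1), DESeq2 1.42.0, a filter of 10 counts in each library, no filter, the replicate block, the first entry of repeated symbols, an adjusted p under 0.01, and each library left out.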

Additional observations from a re-analysis of the deposited data

How the results depend on the processing

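The 4 higher and 1 lower calls became 3 higher and 2 lower with upper-quartile scaling, where TERF2 was lost (log2 fold change 0.26) and TINF2 was called (-0.37). With at least 10 counts in every library TERT is left out, so 0 genes were called lower (edgeR, with 1 gene lower at an unadjusted p under 0.05) and 0 passed the 2-fold thresholds, and TERF2 was 0.30 and not called. DESeq2 and limma-voom, which keep TERT, called 1 gene lower each. DESeq2 gave 0.34 for TERF2, also not called. The sign of TERF1 turned to 0.0045 with library size only and to 0.013 without a filter, both not called. With each library left out in turn, TERF1 ran from -0.196 to 0.0525 and TERF2 from 0.22 to 0.47. The cause was not tested. DKC1, POT1, WRAP53 and TERT kept their direction and their call under every alternative that could test them, DKC1 from 0.66 to 0.76, POT1 from 0.68 to 0.78 and WRAP53 from 0.57 to 0.68, outside the fits with a library left out.

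Both lines have libraries numbered 1, 2 and 3, and the numbers were not taken as pairs, with correlations of -0.16, 0.22 and -0.14 between same-numbered libraries. With the replicate block the counts were 4 higher and 1 lower, and the log2 fold change was 0.72 for DKC1, 0.74 for POT1, 0.63 for WRAP53 and 0.33 for TERF2 (edgeR adjusted p = 0.0353). Of 12514 symbols in all, 2993 were higher and 3098 lower with the block, against 3131 and 3257 without it. TERT rests on 110 counts in 1CT, which limits its precision. RTEL1 had 4 counts in 1CT, and whether depth or the assignment of reads near its 3′ end set this was not tested.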
